A study of Mus musculus with 6 samples.

Results

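Immunoglobulin gene segments are described here in RNA from sorted CD4 T cells. The members were defined by annotation, under a rule chosen with earlier results of these data known. A gene was taken when GENCODE M21 gives it as a variable (V), diversity (D), joining (J) or constant (C) segment of an immunoglobulin locus. Pseudogenes were left out. This gave 248 of the 28914 genes measured. The heavy chain locus held 134 of them (106 V, 16 D, 4 J and 8 C), the kappa light chain locus 104 (98 V, 5 J and 1 C) and the lambda light chain locus 10 (3 V, 3 J and 4 C). In the GRCm38 build the heavy segments lay on chromosome 12 from 113254830 to 116000461, the kappa segments on chromosome 6 from 67555497 to 70726966, and the lambda segments on chromosome 16 from 19061618 to 19260859.

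B cells build each antibody gene by joining 1 V, 1 J and, in the heavy chain, 1 D segment, and the joined exon is spliced to a constant region. A naive B cell reads the mu and delta constant genes (Ighm, Ighd), and class switching later replaces them with a gamma, epsilon or alpha gene downstream, which gives IgG, IgE or IgA. Plasma cells transcribe the rearranged heavy and light chain genes at very high levels, so a small number of them can supply much immunoglobulin RNA. T cells rearrange T cell receptor genes instead, while they develop in the thymus. Prdm1 encodes Blimp-1, a transcriptional repressor that drives plasma cell differentiation and also acts in T cells.

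The study took total CD4 T cells sorted from the spleen of NOD mice, a strain with spontaneous autoimmune diabetes, at 12 weeks of age and gave them no further stimulation of the T cell receptor. The 6 libraries form 3 groups of 2, from WT controls, from CKO mice labelled as lacking Blimp-1 and from BTg mice labelled as overexpressing it. The labels do not name the promoter of the transgene, the Cre line of the knockout or the number of mice behind a library, so p-values here take in the spread of these libraries alone, which may be technical. Libraries are numbered within a group (WT 1, WT 2 and so on). The files hold FPKM, from which whole reads were recovered, 14958458 to 17799091 per library.

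Prdm1 stood at 9.62 and 13.2 RPM (reads in each 1000000 reads of a library) in WT, 17.8 and 14.0 in CKO, and 411 and 631 in BTg. It was not lower in the libraries labelled CKO than in WT, and a count over the whole gene does not show which exons were read, so this level does not check that label. WT, CKO and BTg therefore name libraries by their labels throughout. The first CKO library (CKO 1) stood apart from the others. A list of 12 neutrophil genes summed to 13525 RPM in it and to 78.7 to 401 in the other 5 libraries, and Cd4 itself was at 509 RPM against 773 to 979 elsewhere. Fitted differences from CKO are therefore given with and without CKO 1 for the segments as a whole, most constant genes and some kinds of segment. The same holds for several V segments.

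The sequences that take part in the joining step are shown first. The measured values are per gene, and the letters marked below played no part in them. The letters are the reference transcripts of GENCODE M21 on GRCm38, a C57BL/6 genome, so NOD alleles may differ. All 4 heavy J segments hold TGGGG, which starts with the codon for the conserved tryptophan of the joined chain, and 4 of 5 kappa J segments hold TTCGG, which starts with the codon for the conserved phenylalanine. Capitals mark these letters, searched on the coding strand.
Ighj1: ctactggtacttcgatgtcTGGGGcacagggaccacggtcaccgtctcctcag
Ighj2: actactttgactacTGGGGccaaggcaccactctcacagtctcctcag
Ighj3: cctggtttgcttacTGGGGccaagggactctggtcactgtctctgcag
Ighj4: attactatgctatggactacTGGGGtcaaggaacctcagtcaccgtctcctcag
Igkj1: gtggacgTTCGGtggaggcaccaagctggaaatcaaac
Igkj2: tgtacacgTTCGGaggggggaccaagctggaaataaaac
Igkj3: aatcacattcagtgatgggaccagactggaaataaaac
Igkj4: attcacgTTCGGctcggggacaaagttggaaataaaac
Igkj5: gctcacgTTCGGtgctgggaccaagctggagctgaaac

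Igkj3 holds no TTCGG. The D segment with the most reads, Ighd4-1, is 11 bases long, which shows how little of a read a D segment can take up.
Ighd4-1: ctaactgggac

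The 9 heavy and kappa V segments that led a library in reads end in these last 60 bases, with the codon of the conserved cysteine just before the third complementarity determining region in capitals. That codon was found by its context (TAT or TAC, any codon, then TGT or TGC, on the coding strand) in 104 of 106 heavy and 97 of 98 kappa V segments.
Ighv6-3: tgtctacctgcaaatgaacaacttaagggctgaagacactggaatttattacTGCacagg
Ighv4-1: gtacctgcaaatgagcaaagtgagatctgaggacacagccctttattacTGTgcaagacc
Ighv11-2: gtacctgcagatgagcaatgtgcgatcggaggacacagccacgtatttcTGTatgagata
Ighv1-64: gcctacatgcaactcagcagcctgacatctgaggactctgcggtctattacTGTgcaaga
Ighv2-2: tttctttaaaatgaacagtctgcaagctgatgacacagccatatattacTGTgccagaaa
Igkv8-24: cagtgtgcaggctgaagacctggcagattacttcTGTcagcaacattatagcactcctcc
Igkv4-86: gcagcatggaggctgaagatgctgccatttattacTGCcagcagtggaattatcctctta
Igkv14-126: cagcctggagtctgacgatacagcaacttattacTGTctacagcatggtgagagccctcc
Igkv10-96: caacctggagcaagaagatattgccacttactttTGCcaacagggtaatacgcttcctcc

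Immunoglobulin segments took 0.848% and 1.16% of all reads in WT, 6.97% and 1.79% in CKO, and 0.874% and 0.702% in BTg. Both CKO libraries were above both WT libraries, and the WT and BTg libraries overlapped. The mean over CKO was 4.35 times that over WT, but CKO 2 alone was 1.78 times the WT mean, and CKO 1 was 3.88 times CKO 2. The BTg mean was 0.783 times the WT mean. Wilson 95% intervals on these shares were narrow (0.844 to 0.853% in WT 1) and cover counting error only. In RNA of a sorted population, fewer cells of a type and less RNA per cell cannot be told apart. With 2 libraries against 2 an exact permutation test cannot give a p below 0.33, so single totals and shares are described by their spread and carry no test.

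The heavy locus gave more reads than the light chain loci in every library. It stood at 4733 and 7155 RPM in WT, 40723 and 11160 in CKO, and 5153 and 4358 in BTg. Kappa, the light chain most mouse B cells use, stood at 3043 and 4047 in WT, 26776 and 6309 in CKO, and 3058 and 2276 in BTg. For both loci each CKO library was above each WT and BTg library. Lambda differed from them: it stood at 707 and 440 RPM in WT, 2161 and 474 in CKO, and 533 and 385 in BTg. CKO 2 lay between the WT libraries here, at 0.827 times their mean, so that the higher lambda level in CKO rested on CKO 1.

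**Figure D1:**
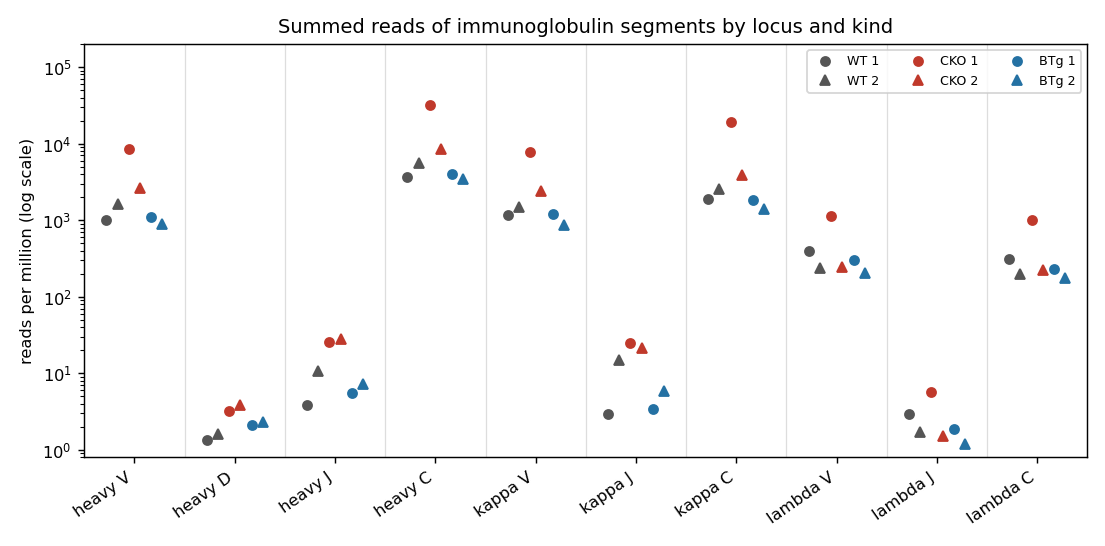
RPM (vertical axis, log scale) summed over the V, D, J and C segments of each locus, 1 point per library with the first replicate as a circle and the second as a triangle. CKO 1 is the highest point for every V and C sum, while for heavy J it is at 25.8 and CKO 2 at 27.9.

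Constant region genes held most of these reads. Heavy constant genes summed to 3709 and 5524 RPM in WT, 32080 and 8496 in CKO, and 4049 and 3450 in BTg. The makeup of that sum differed between the groups. Ighm, the mu gene at chromosome 12, 113418558 to 113422730, gave 72.6% and 65.9% of heavy constant reads in WT, 38.0% and 42.4% in CKO, and 82.0% and 81.3% in BTg. The 3 groups did not overlap, with means of 69.2% ± 4.72 in WT, 40.2% ± 3.14 in CKO and 81.7% ± 0.51 in BTg (SD, n = 2). The Wilson 95% interval was at most 0.341 percentage points to either side in any library, and the difference between CKO and WT was 29.0 points lower in CKO with both libraries and 26.8 points lower with CKO 2 alone. Reads were not divided by gene length here. On the sum of FPKM, which divides by length, the mu share was 73.5% and 67.8% in WT, 39.5% and 43.7% in CKO and 82.8% in each BTg library.

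The switched genes (gamma, epsilon and alpha together) made up the rest, since Ighd, with 36 and 99 reads in WT, 82 and 97 in CKO, and 77 and 76 in BTg, held at most 0.15% of the reads. They stood at 1016 and 1879 RPM in WT, 19898 and 4887 in CKO, and 722 and 639 in BTg. Each group lay apart from the other two. The CKO mean was 8.56 times the WT mean, CKO 2 alone was 3.38 times it, and the BTg mean was 0.470 times it. Ighm itself did not separate CKO from WT: it was at 873 and 1181 FPKM in WT, 3952 and 1169 in CKO, and 1078 and 910 in BTg. Outside CKO 1, the libraries thus had mu RNA in a narrow range and differed more in the switched genes.

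Igha, the alpha gene whose product is the IgA of mucosal surfaces, was the second heavy constant gene by reads in every library. It stood at 119 and 384 FPKM in WT, 3423 and 803 in CKO, and 102 and 114 in BTg. Both CKO libraries were above both WT libraries, and both BTg libraries were below them. As a share of heavy constant reads it held 11.1% and 24.1% in WT, 37.0% and 32.8% in CKO, and 8.75% and 11.5% in BTg, so that BTg 2 overlapped WT 1.

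The 4 gamma genes together gave 16.3% and 9.87% of heavy constant reads in WT, 25.0% and 24.7% in CKO, and 9.08% and 7.05% in BTg, again without overlap between the groups. Ighg2b had the most reads of the 4 in the WT and CKO libraries, with 9.61% and 5.53% of heavy constant reads in WT, 12.4% and 10.5% in CKO, and 3.23% and 2.37% in BTg. Ighg2c held 4.73% and 3.06% in WT, 8.99% and 10.4% in CKO, and 3.57% and 0.58% in BTg. Its WT and BTg libraries overlapped. Ighg1 held 0.996% and 1.26% in WT, 2.96% and 2.63% in CKO, and 0.92% and 0.30% in BTg. The 3 genes shared the order CKO, WT, BTg by group mean.

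Ighg3, the gamma gene closest to mu and delta, did not share it. It had 606 and 17 reads in WT, 3703 and 1726 in CKO, and 843 and 1968 in BTg, which is 0.92% and 0.02%, 0.65% and 1.15%, and 1.36% and 3.81% of heavy constant reads. Both BTg shares were above the other 4 libraries, and the WT libraries differed from each other far more than for any other gamma gene. Ighe, the epsilon gene, had 20 and 21 reads in WT, 59 and 15 in CKO, and 3 and 1 in BTg. As a share of heavy constant reads, the Wilson intervals of both WT libraries lay above those of both BTg libraries.

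**Figure D2:**
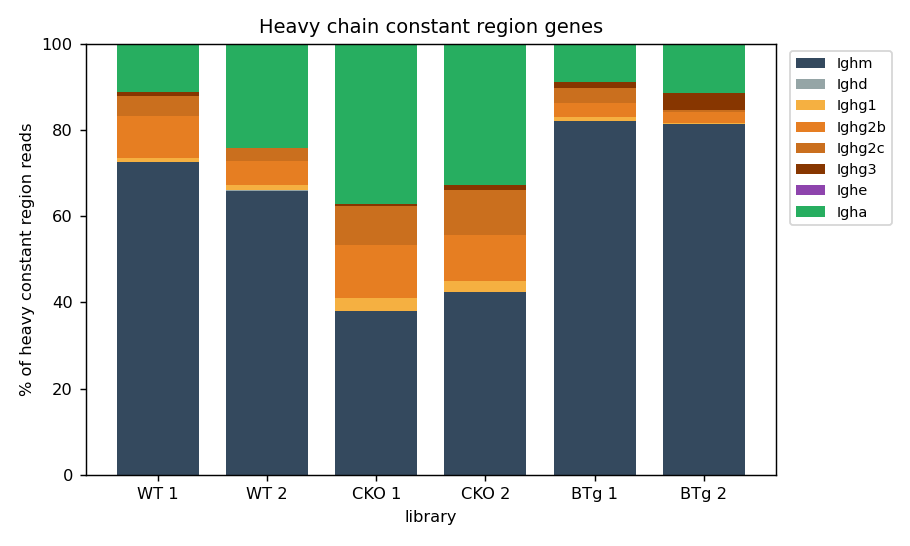
Share of heavy chain constant region reads (vertical axis, %) taken by each of the 8 constant genes, 1 stacked bar per library. The Ighm part is 82.0% and 81.3% in BTg, 72.6% and 65.9% in WT, and 38.0% and 42.4% in CKO.

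On the log2(FPKM + 1) scale, where the limma fit was made, the difference between CKO and WT was 1.08 for Ighm (SE 0.61), 2.95 for Igha (SE 0.83), 3.10 for Ighg1 (SE 0.83), 2.50 for Ighg2b (SE 0.71), 3.20 for Ighg2c (SE 0.96) and 3.50 for Ighg3 (SE 1.03), each with an adjusted p of 1. With CKO 2 alone against WT these differences were 0.20, 1.91, 2.06, 1.43, 2.35 and 2.96 in the same order. The switched genes thus stayed above WT by more than Ighm did in CKO 2, although none passed the test. Between BTg and CKO the difference was -1.12 for Ighm, -3.93 for Igha (adjusted p = 0.299), -4.30 for Ighg1 (adjusted p = 0.245), -4.15 for Ighg2b (adjusted p = 0.236), -4.80 for Ighg2c (adjusted p = 0.265) and -0.71 for Ighg3. None passed, and without CKO 1 they were -0.24, -2.88, -3.26, -3.07, -3.95 and -0.18. Between BTg and WT, Igha was at -0.98, Ighg1 at -1.20, Ighg2b at -1.64, Ighg2c at -1.60 and Ighg3 at 2.79, with an adjusted p of 1 for each, while Ighm was at -0.04. These values rested on single libraries: Igha was at -0.14 without WT 2, Ighg1 at -0.41 and Ighg2c at -0.25 without BTg 2, and Ighg3 at 1.25 without WT 2 and 4.32 without WT 1, while Ighg2b ranged from -1.97 to -1.31 with 1 library left out.

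Igkc, the 1 kappa constant gene (chromosome 6, 70726435 to 70726966), was the single segment with the most FPKM in every library. It stood at 3524 and 4791 FPKM in WT, 35664 and 7332 in CKO, and 3476 and 2650 in BTg. The groups did not overlap, in the order CKO, WT, BTg. CKO 1 exceeded CKO 2 4.86-fold for this gene, against 3.78-fold for the heavy constant sum. The log2 difference was 1.98 between CKO and WT (SE 0.75), 0.84 without CKO 1, and -2.41 between BTg and CKO (adjusted p = 0.470), where it was -1.27 without CKO 1.

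The lambda constant genes Iglc1, Iglc2 and Iglc3 were above WT in CKO 1 and not in CKO 2. Iglc1 stood at 247 and 194 FPKM in WT, 1054 and 213 in CKO, and 226 and 129 in BTg. Iglc2 stood at 157 and 83.5 in WT, 413 and 95.6 in CKO, and 101 and 91.4 in BTg. Iglc3 stood at 26.5 and 27.1 in WT, 89.7 and 26.7 in CKO, and 20.3 and 16.9 in BTg. For each of the 3 genes CKO 2 lay between the WT libraries, and the log2 difference from WT, 1.11, 0.79 and 0.85 with both CKO libraries, was -0.04, -0.26 and -0.01 with CKO 2 alone. Iglc4 had 0 to 4 reads in a library.

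As a share of light chain constant reads, lambda held 14.3% and 7.30% in WT, 5.08% and 5.43% in CKO, and 11.2% and 11.1% in BTg. CKO was below the other groups, while BTg lay between the WT libraries. The difference between CKO and WT was -5.55 percentage points, from -9.06 to -2.05 when 1 library was left out, so that its size rested on WT 1. The Wilson 95% intervals reached at most 0.400 points to either side. Light and heavy constant reads kept a similar ratio across libraries, with 0.590 and 0.498 light reads per heavy read in WT, 0.623 and 0.485 in CKO, and 0.514 and 0.460 in BTg.

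The V segments gave 27.5 and 29.3 heavy V reads per 100 heavy constant reads in WT, 26.8 and 31.0 in CKO, and 27.1 and 26.0 in BTg. For kappa the figures were 62.2 and 58.2 in WT, 40.99 and 61.2 in CKO, and 65.2 and 61.0 in BTg, with CKO 1 the low library. Of 106 heavy V segments 96 to 103 had a read in a library, and of 98 kappa V segments 84 to 96. Reads were spread over many segments rather than 1 rearrangement. The effective number of V segments is 1 divided by the sum of their squared shares of the locus's V reads, so the leading segments weigh most. For heavy V it was 39.3 and 42.1 in WT, 29.3 and 45.9 in CKO, and 31.9 and 35.6 in BTg. For kappa V it was 27.3 and 28.6 in WT, 22.2 and 27.7 in CKO, and 23.0 and 29.1 in BTg. CKO 1 was the least even library for both loci, and CKO 2 the most even for heavy V, so the CKO libraries lay on both sides of the others. For heavy V both BTg values were below both WT values, and for kappa V they lay on both sides of them.

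The leading V segment differed from library to library. Among heavy V segments Ighv6-3 led both WT libraries with 5.84% and 4.98% of heavy V reads, Ighv4-1 led CKO 1 with 12.2%, Ighv1-64 led CKO 2 with 5.42%, Ighv11-2 led BTg 1 with 8.80% and Ighv2-2 led BTg 2 with 7.15%. Among kappa V segments Igkv8-24 led WT 1 with 7.67%, Igkv14-126 led WT 2 with 9.51% and both BTg libraries with 12.8% and 6.68%, Igkv4-86 led CKO 1 with 13.4% and Igkv10-96 led CKO 2 with 9.91%. No heavy V segment led both libraries of CKO or of BTg.

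Ighv4-1 and Igkv4-86, whose ends are printed above, had nearly the same number of reads in CKO 1. Ighv4-1 (chromosome 12, 113948282 to 113948796) had 545 and 872 reads in WT, 18739 and 1210 in CKO, and 774 and 674 in BTg. Igkv4-86 (chromosome 6, 68910411 to 68910973) had 417 and 649 in WT, 18502 and 1355 in CKO, and 927 and 844 in BTg. Outside CKO 1 each held 2.01% to 6.56% of its locus's V reads. RNA of pooled cells does not show which heavy and light chains came from the same cell. Ighv4-1 shares no 50-base stretch with another V segment, while Igkv4-86 shares 17.2% of its stretches.

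Ighv11-2 and Igkv14-126 are V segments known from the antibodies of B-1a cells, a self-renewing B cell subset that makes natural IgM. Both were highest as a share in BTg 1. Ighv11-2 held 3.70% and 4.89% of heavy V reads in WT, 2.1% and 2.44% in CKO, and 8.80% and 3.91% in BTg. Igkv14-126 held 5.75% and 9.51% of kappa V reads in WT, 4.42% and 3.90% in CKO, and 12.8% and 6.68% in BTg. In both the CKO libraries held the lowest shares, and WT and BTg overlapped. The level was not lower in CKO: Ighv11-2 stood at 66.0 and 138 FPKM in WT, 316 and 112 in CKO, and 169 and 61.4 in BTg.

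Ighv6-3 held 2.62% and 2.99% in CKO against 4.98% to 6.28% in the other 4 libraries, and Igkv8-24 held 4.25% and 4.37% against 5.12% to 7.67%. Ighv1-26 was high in BTg 1 alone, at 7.72% against 2.39% to 3.82%. Ighv1-55 was highest in CKO 1 at 6.97% and lowest in BTg 1 at 1.41%. Igkv1-117 kept to 5.74% to 9.52% in every library. Igkv6-20 ranged from 2.72% in BTg 1 to 7.29% in WT 1, and Ighv2-2 from 2.90% in WT 1 to 7.15% in BTg 2. Igkv6-20 and Ighv2-2 share 64.1% and 55.5% of their 50-base stretches with other V segments, so their counts depend on how reads with several matches were treated, which is not given in the sources used here.

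**Figure D3:**
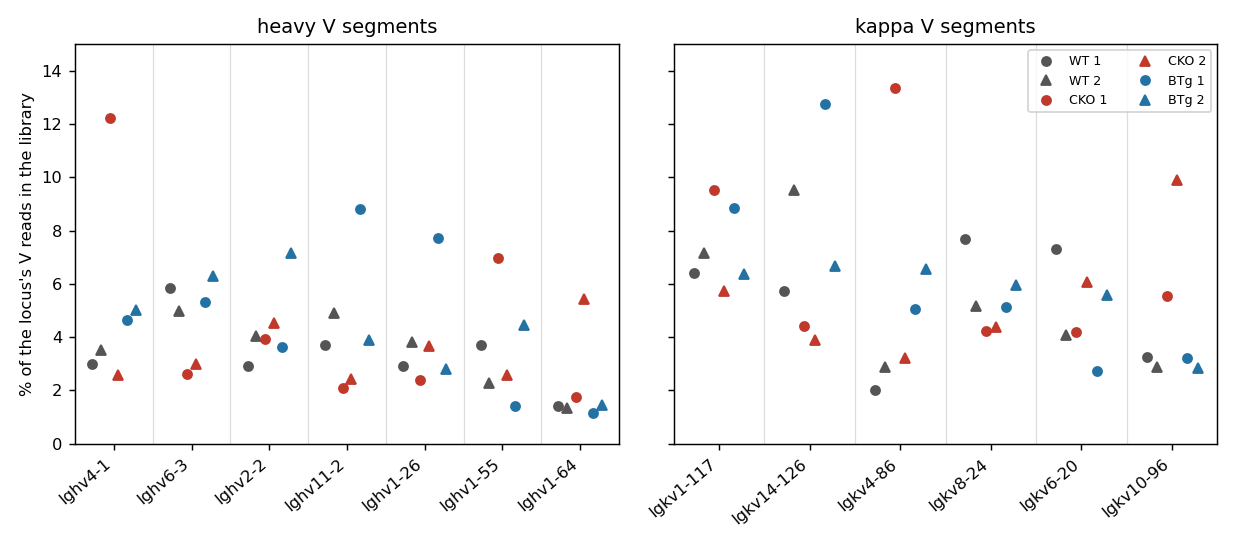
Share of the locus's V reads (vertical axis, %) held by the most used heavy (left) and kappa (right) V segments, 1 point per library. Ighv4-1 at 12.2% and Igkv4-86 at 13.4% in CKO 1, Igkv14-126 at 12.8% in BTg 1 and Igkv10-96 at 9.91% in CKO 2 stand above the other libraries.

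Grouped into families, the 50 segments of heavy V family 1, the largest family of the mouse, held 44.9% and 39.8% of heavy V reads in WT, 43.1% and 49.8% in CKO, and 36.8% and 34.1% in BTg. Both BTg libraries were below the other 4. Family 14 was highest in CKO 1 at 7.07% and at 1.95% to 3.99% elsewhere. Kappa family 10 held 6.50% and 12.1% in CKO and 3.49% to 3.95% in WT and BTg. The 53 heavy V segments closest to the J segments held 55.1% and 59.5% in WT, 57.3% and 51.0% in CKO, and 63.6% and 64.9% in BTg, with both BTg libraries above the other 4. The 53 farther segments held 44.9% and 40.5% in WT, 42.7% and 49.0% in CKO, and 36.4% and 35.1% in BTg. These values lie close to the family 1 shares in each library, so both divisions show much the same shift. These shares add to a fixed total, so a high segment lowers the others.

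The 3 lambda V segments split in a way that varied between replicates. Iglv1 held 38.2% and 54.4% of lambda V reads in WT, 62.5% and 56.9% in CKO, and 51.9% and 39.4% in BTg, and Iglv2 held 54.6% and 39.96%, 28.8% and 38.0%, and 45.5% and 58.3%. Iglv3 held 7.19% and 5.63%, 8.65% and 5.08%, and 2.57% and 2.32%, with BTg below the other 4 libraries. The interval of a lambda V share was up to 1.73 points to either side.

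The J segments had few reads. The heavy and kappa J transcripts printed above are 38 to 54 bases long, and the part of length in these read numbers was not tested. Heavy J segments stood at 3.82 and 10.7 RPM in WT, 25.8 and 27.9 in CKO, and 5.57 and 7.29 in BTg, and kappa J at 2.92 and 14.9, 25.1 and 21.3, and 3.47 and 5.95. Both CKO libraries were above both WT and both BTg libraries. Unlike the constant genes, the J segments were at a similar level in the 2 CKO libraries: CKO 1 was 0.928 times CKO 2 for heavy J and 1.18 times for kappa J, against 3.78 times for heavy constant genes. Per 1000 heavy constant reads there were 1.03 and 1.95 heavy J reads in WT, 0.806 and 3.28 in CKO, and 1.38 and 2.11 in BTg, with WT 2, CKO 2 and BTg 2 each above the other library of its group. For kappa the figures were 1.56 and 5.86, 1.32 and 5.47, and 1.88 and 4.22, with the same libraries high.

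Ighj4 had the most reads of the heavy J segments, with 28 and 73 in WT, 224 and 225 in CKO, and 29 and 41 in BTg. Ighj3, the next in most libraries, had 13 and 43 in WT, 126 and 122 in CKO, and 27 and 33 in BTg. Igkj3, the kappa J segment without TTCGG, was read as often as the others, with 14 and 57 in WT, 124 and 92 in CKO, and 11 and 22 in BTg. Igkj5 had 15 and 54, 123 and 113, and 15 and 25. Iglj1 had 44 and 18 in WT, 86 and 12 in CKO, and 25 and 11 in BTg, and like the lambda constant genes it was high in CKO 1 and not in CKO 2. The interval of a single J share was up to 11.4 points for heavy J and 12.0 for kappa J, too wide to order the segments within a small library. The 16 D segments together had 24 to 69 reads in a library, and Ighd4-1 took 13 and 11 of them in WT, 44 and 47 in CKO, and 18 and 6 in BTg.

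Across all genes, limma compared the groups on log2(FPKM + 1) for the 10798 genes that reached 1 FPKM in 2 or more libraries, 215 immunoglobulin segments among them. The 33 that did not reach this level included Ighd, Ighe and Iglc4, 21 kappa V and 8 heavy V segments. A short D segment can reach 1 FPKM with 1 read, so passing says little about its level. A gene could also pass through the 2 libraries of 1 group alone, and it is then higher in that group by the filter itself. The counts of segments by direction below include any such segments and are descriptions, not tests. Segments of a locus are also not independent of each other. All genes tested passed the same filter. The comparisons with a common group share its libraries, and each is given by its own values.

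Between CKO and WT no gene had an adjusted p under 0.05 (0% of all genes tested), so no segment did. At an unadjusted limma p under 0.05 there were 454 of 10798 genes, with 113 of 215 segments among them. limma voom on the recovered reads also called 0 segments. By direction, 208 segments were higher in CKO and 6 lower, and the median difference was 1.63 on the log2(FPKM + 1) scale against -0.03 over all genes tested. For 146 segments (67.9%) both CKO libraries were above both WT libraries, which held for 11.5% of all genes tested. For 0 segments were both CKO libraries below both WT libraries, against 8.96% of all genes tested. CKO 2 alone was above both WT libraries for 153 segments (71.2%), against 37.3% of all genes tested, and without CKO 1 the median difference was 0.95. The median was 1.79 for heavy V, 1.61 for kappa V, 2.21 for heavy J, 3.02 for heavy constant and 0.85 for lambda constant segments that passed the filter. With CKO 2 alone these medians were 1.05, 0.71, 2.20, 1.98 and -0.04 in the same order, against 0.11 over all genes tested. The lambda V median was 0.86 with both CKO libraries and -0.59 with CKO 2 alone.

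Ighv1-64 had the smallest p of the segments. It stood at 30.02 and 45.1 FPKM in WT, 311 and 293 in CKO, and 25.7 and 26.5 in BTg. Here CKO 1 and CKO 2 were alike, and both were far above the other 4 libraries. The difference was 3.00 between CKO and WT (SE 0.32, adjusted p = 0.390), and 2.96 with CKO 2 alone. The kappa segments Igkv10-95 and Igkv10-94 followed. Igkv10-95 had 55 and 62 reads in WT, 634 and 415 in CKO, and 49 and 39 in BTg, a difference of 2.90 between CKO and WT. Igkv10-94 had 86 and 75, 711 and 496, and 70 and 50, a difference of 2.66. With CKO 2 alone they were at 2.60 and 2.41. Their neighbour Igkv10-96 had 678 and 654, 7658 and 4196, and 594 and 368 reads, a difference of 2.97 (SE 0.43, adjusted p = 0.479) and of 2.54 with CKO 2 alone. The 3 lie next to each other in the kappa locus and belong to 1 family, which holds similar sequences. Igkv10-94, Igkv10-95 and Igkv10-96 share 46.6%, 17.8% and 32.6% of their 50-base stretches with other segments. Their counts may therefore not be independent, and they are not 3 separate results. Of the 6 segments lower in CKO, the 3 with the smallest p were Ighd5-2 and Ighd2-6, each with 0 and 1 reads in WT and 0 in CKO, and Ighv7-4 at -0.52, each with an adjusted p of 1.

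Between BTg and WT 2 genes passed (0.0185% of all genes tested), 1 of them Prdm1, and 0 segments did by limma or by limma voom. At an unadjusted limma p under 0.05 there were 175 of 10798 genes and 16 of 215 segments. The median over the segments was -0.34 against 0.02 over all genes tested, with 65 higher and 150 lower in BTg. Both BTg libraries were below both WT libraries for 59 segments (27.4%) against 10.4% of all genes tested, and above them for 18 (8.37%) against 14.7%. The segments with the smallest p were Ighd5-7, Gm37327 and Ighv1-58 among those higher, and Ighv1-9 at -1.91, Igkv2-109 at -2.20 and Ighv1-85 at -2.28 among those lower. All had an adjusted p of 1. Ighd5-7 had 0 reads in WT against 3 and 1 in BTg, and Gm37327 had 0 against 2 and 4, so no size is given for either. Ighv1-58 had 27 and 47 reads in WT, 314 and 372 in CKO, and 83 and 123 in BTg, a difference of 1.45 between BTg and WT. Without WT 2 the median over the segments was -0.07.

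Between BTg and CKO 2 genes passed (0.0185% of all genes tested) and 0 segments did. At an unadjusted limma p under 0.05 there were 949 of 10798 genes and 131 of 215 segments. limma voom called 1 segment, Ighv1-64. The median over the segments was -1.97 against 0.06 over all genes tested, and 203 of 215 were lower in BTg. Both BTg libraries were below both CKO libraries for 164 segments (76.3%) against 21.8% of all genes tested, and above them for 7 (3.26%) against 17.8%. Both were below CKO 2 for 169 segments (78.6%) against 39.0% of all genes tested, and the median without CKO 1 was -1.26. Ighv1-64 was at -3.48 (SE 0.32), Igkv10-95 at -3.16 and Igkv10-94 at -2.95, each with an adjusted p of 0.110, and without CKO 1 they were at -3.44, -2.86 and -2.69. Among the segments higher in BTg than in CKO the smallest p belonged to the D segments Ighd5-7, with 0 reads in CKO against 3 and 1 in BTg, Ighd5-2, with 0 against 1 and 2, and Ighd2-3, with 0 and 1 against 2 and 3. None passed, and counts this low give no usable size.

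**Figure D4:**
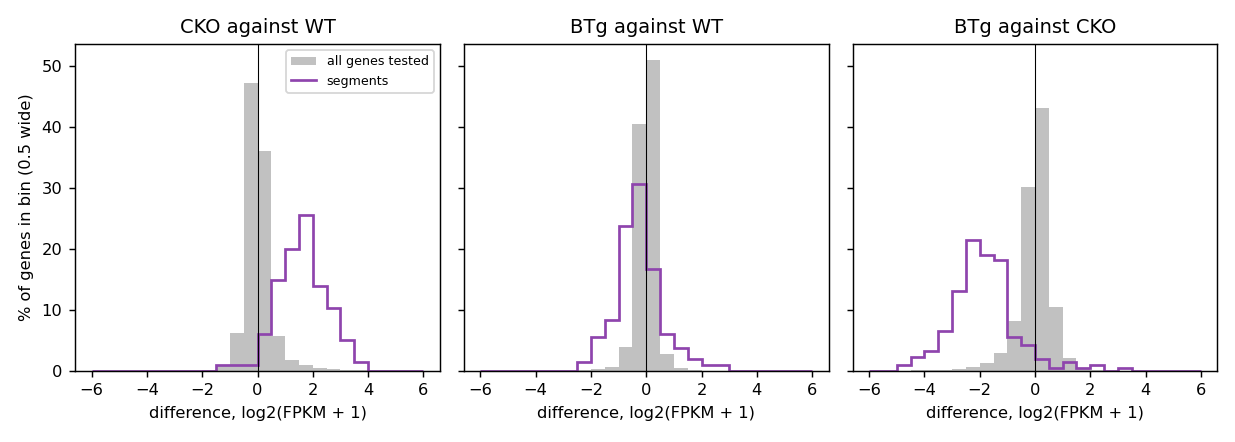
Distribution of the log2(FPKM + 1) difference (horizontal axis) over all 10798 genes tested (grey) and over the 215 immunoglobulin segments (purple line), as % of genes per bin (vertical axis). The segments centre at 1.63 for CKO against WT, -0.34 for BTg against WT and -1.97 for BTg against CKO, with all genes near 0.

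Genes of antibody secretion stood in the same order of group means as the segments, highest in CKO and lowest in BTg. Jchain, which links IgM and IgA into polymers, stood at 886 and 780 RPM in WT, 5147 and 1247 in CKO, and 709.5 and 400.4 in BTg. Mzb1, a chaperone of antibody assembly, stood at 8.94 and 10.9 in WT, 73.2 and 22.0 in CKO, and 8.78 and 6.48 in BTg. Xbp1, a transcription factor of secretory cells, stood at 78.3 and 104 in WT, 387 and 136 in CKO, and 85.0 and 79.0 in BTg. Of the 11 tested genes of the plasma cell list, 11 were higher in CKO than in WT and 10 lower in BTg than in WT, with medians of 1.19 and -0.17, and 0 passed the test. With CKO 2 alone 11 stood above WT, and the median was 0.57, against 7283 of 10798 and 0.11 over all genes tested. The list summed to 1399 and 1472 RPM in WT, 6888 and 2130 in CKO, and 1333 and 1067 in BTg. Per 1000 heavy constant reads, Jchain gave 239 and 141 reads in WT, 160 and 147 in CKO, and 175 and 116 in BTg. Both CKO values lay between the WT values.

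The genes of B cell identity varied in how they stood beside the segments. The list of 15 B cell genes summed to 138 and 267 RPM in WT, 360 and 275 in CKO, and 155 and 191 in BTg, and no gene of it was at 0 in a library. Of its 5 tested genes 4 were higher in CKO than in WT and 5 lower in BTg than in WT, and 0 passed. Cd79b, a signalling chain of the B cell receptor, stood at 8.94 and 9.37 RPM in WT, 34.5 and 10.9 in CKO, and 7.01 and 7.09 in BTg, in the same order as the segments and without overlap. Ms4a1, which encodes CD20, had 52 and 72 reads in WT, 92 and 41 in CKO, and 62 and 49 in BTg. Pax5, a B cell identity factor that is shut off in plasma cells, had 18 and 63, 23 and 30, and 16 and 39. In RPM the CKO libraries lay within the WT range for Pax5. Cd79a, the partner chain of Cd79b, gave 2.70 and 3.74 reads per 1000 heavy constant reads in WT, 1.504 and 2.14 in CKO, and 2.22 and 3.39 in BTg, lowest in CKO.

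Of 8 tested genes of the machinery that rearranges and switches the loci, 4 were higher and 4 lower in each comparison, and 0 passed. With CKO 2 alone 7 of the 8 were above WT, with a median of 0.17. So were 7283 of all 10798 genes tested, with a median of 0.11. Rag1 and Rag2, the recombinase that cuts V, D and J segments, had 0 to 5 and 0 to 2 reads in a library. The surrogate light chain genes Vpreb1, Vpreb3 and Igll1 did not reach the filter. Among 11 tested transcription factors that act on immunoglobulin genes 6 were higher and 5 lower in CKO than in WT. With CKO 2 alone, where most genes tested were above WT, 10 of the 11 were higher. Pou2af1, a coactivator of immunoglobulin promoters, stood at 23.6 and 32.2 RPM in WT, 95.2 and 49.9 in CKO, and 19.3 and 26.6 in BTg.

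Markers of other cell types were also high in CKO 1. The neutrophil list, 9 of whose genes were tested and 9 higher in CKO, was at 121 and 329 RPM in WT, 13525 and 401 in CKO, and 78.7 and 84.1 in BTg. With CKO 2 alone 9 of the 9 were still above WT, with a median difference of 1.20 against 0.11 over all genes tested. The monocyte list was at 85.0 and 163, 1221 and 209, and 67.4 and 60.4, and the basophil list at 19.2 and 36.8, 435 and 50.5, and 18.0 and 18.3. The T cell list was lowest in CKO 1, at 4643 RPM against 6983 to 9761, and all 14 of its genes had a lower mean in CKO than in WT. With CKO 2 alone 10 of these T cell genes were lower and 4 higher, with a median of -0.10. T cell receptor V segments, the T cell counterpart of the genes described here, stood at 1285 and 627 in WT, 484 and 663 in CKO, and 1095 and 753 in BTg. The mu share was 38.0% in CKO 1 and 42.4% in CKO 2, against 72.6% and 65.9% in WT. The part of other cells in the immunoglobulin reads was not tested.

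**Figure D5:**
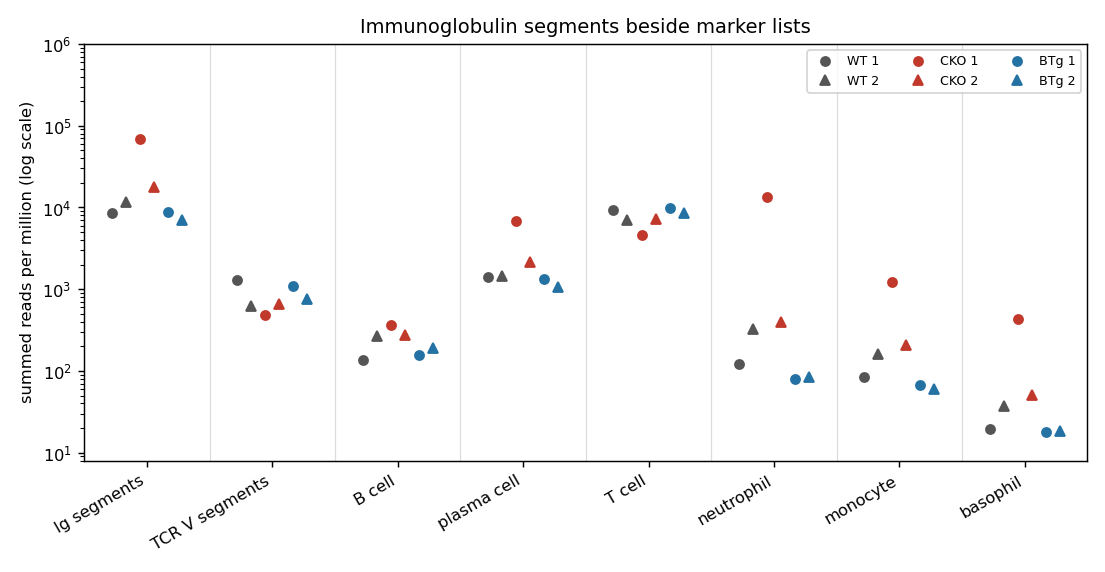
Summed RPM (vertical axis, log scale) of the immunoglobulin segments, the T cell receptor V segments and 6 marker lists, 1 point per library. CKO 1 is highest for the immunoglobulin segments at 69660 and for the neutrophil list at 13525, and lowest for the T cell list at 4643.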

How the data were processed

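Total RNA came from a TRIzol extraction and the sequencing libraries from a NEBNext Ultra RNA kit, per the labels' protocols. Trimmomatic 0.38, HISAT2 2.1.0, featureCounts 1.6.0 and the GRCm38 build are named, per the submitters' processing notes. The sources used here do not give their settings, the annotation release, strand use or the treatment of reads with several matches. FPKM values of 28914 genes in 6 libraries were deposited by the authors, and they divide by the median span of each gene's transcripts on the genome. With that length, 100% of the deposited FPKM values came out as whole reads within 0.01, and shares and RPM use those reads. The 248 segments were matched by Ensembl identifier to GENCODE M21, and the members and gene lists were chosen with earlier results of these data known.

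Totals were 17782999 and 15259455 reads in WT, 17799091 and 17731878 in CKO, and 15254255 and 14958458 in BTg. Differences were fitted with limma 3.58.1 (R 4.3.3; lmFit, eBayes with a trend) on log2(FPKM + 1) over all genes that reached 1 FPKM in 2 or more libraries, 6 libraries together, with no replicate block, and p-values were adjusted by Benjamini-Hochberg over all genes tested, with a threshold of 0.05. The fit was tested on simulated data. Replicates differed beyond sampling noise (chi-square per degree of freedom 46.5 to 200.7), so none was merged. Named segments are all constant genes, the 6 heavy and 6 kappa V segments with the largest mean share, the leading V segment of each library, all lambda V segments and the 3 smallest p in each direction; Igkv10-96 in the fit, Ighj3, Ighj4, Igkj3, Igkj5 and Iglj1 were chosen after their values were seen. Some genes of the lists are not reported here. Summaries used Python 3.11.15, pandas 2.3.3, numpy 2.4.6 and matplotlib 3.10.9. Alternatives were another pseudocount (0.1), no filter, quantile normalization, a replicate block, no trend, leaving out each library, limma voom, merged exon length, sums of FPKM, other denominators and inclusion of 55 pseudogenes.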

Additional observations from a re-analysis of the deposited data

How the results depend on the processing

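The differences in mu share and in summed immunoglobulin reads kept their direction under each alternative run on them, and so did the median over the segments. Numbers of calls did not. For CKO against WT, 65 genes and 1 segment (Igkv4-69, with 1 read in each CKO library and 0 elsewhere) passed with no filter on low values. Leaving out 1 library gave 0 to 81 genes and 0 to 18 segments, the most without CKO replicate 2, where CKO 1 stands alone and is assumed to vary like the other groups. For BTg against WT, 46 genes passed with no filter, 0 with quantile normalization, 4 with limma voom on the recovered reads and 0 to 0 with 1 library left out. For BTg against CKO, 81 genes and 2 segments passed with no filter, 0 genes with quantile normalization, 7 genes and 1 segment with limma voom, 9 genes and 3 segments (Ighv1-64, Igkv10-95 and Igkv10-94) with merged exon length, 1 segment without a trend, and 0 to 255 genes and 0 to 62 segments with 1 library left out, again the most without CKO replicate 2. limma voom, merged exon length, the alternatives for the mu and lambda shares and the medians by kind and list without CKO 1 were chosen after seeing the data.

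The replicate numbers are only a number in the labels. With a replicate block 0 genes passed for BTg against WT and 0 for BTg against CKO, against 2 each without it. Deviations of same-numbered libraries correlated at 0.17 (WT and CKO), 0.47 (WT and BTg) and 0.46 (CKO and BTg), each resting on 1 number. The block changed no call of a segment.

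Lambda results, and the switched constant genes between BTg and WT, depended on single libraries. Without 1 library the latter ranged from -1.82 to -0.14 for Igha, from -1.99 to -0.41 for Ighg1, from -2.96 to -0.25 for Ighg2c and from 1.25 to 4.32 for Ighg3. The lambda share difference between BTg and WT, 0.34 percentage points, ranged from -3.17 to 3.85 with 1 library left out, and that between BTg and CKO, 5.90, was 4.37 on the sum of FPKM. With 1 library left out the log2 differences between CKO and WT ranged from -0.039 to 2.26 for Iglc1, from -0.26 to 1.84 for Iglc2 and from -0.0054 to 1.71 for Iglc3. Those between BTg and WT ranged from -0.76 to 0.049 for Iglc1, from -0.70 to 0.20 for Iglc2 and from -0.25 to 0.18 for Ighm, which was at 0.21 with quantile normalization, and that between BTg and CKO for Iglc2 from -2.09 to 0.0041. The cause was not tested. Depth limits D, J and Ighe values, which rest on few reads.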

Other observations

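Immunoglobulin pseudogenes, left out of the members, stood at 15.9 and 17.2 RPM in WT, 119 and 20.4 in CKO, and 10.9 and 9.96 in BTg. The receptor gene Fcgr1, which binds IgG on myeloid cells, had 4 and 2 reads in WT, 414 and 9 in CKO, and 0 and 2 in BTg, and Fcgr3 had 27 and 33, 727 and 37, and 18 and 24. Fcer2a, a receptor of IgE on B cells, had 14 and 29 reads in WT, 5 and 12 in CKO, and 13 and 38 in BTg. Cr2, a complement receptor of mature B cells, had 40 and 93, 29 and 49, and 49 and 91.

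When CKO 1 stood alone against WT, Ighv14-1 had a log2 difference of 5.23 and Ighv1-20 one of 4.53. With both CKO libraries these differences were 3.11 and 3.73. Ighv14-1 held 1.46% of heavy V reads in CKO 1 and 0.24% in CKO 2, and Ighv1-20 held 0.56% and 0.59%. Ighm had 1329 and 561 reads per Ighd read in WT, 2643 and 659 in CKO, and 658 and 552 in BTg.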
